A study of Macaca mulatta with 28 samples.

Results

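Long exons are the exons of at least 3000 bases in the exon table of 28 male rhesus macaques that drank ethanol. A member reached 10 normalized reads in 5 or more libraries and lay in a gene with 3 or more exons that did so too. Of 156345 exons in the table, 2282 had this length. Of these, 90 missed the minimum, and 479 lay in genes with fewer than 3 expressed exons. The remaining 1713 members lay in 1684 of 9817 genes. Values are normalized reads, that is reads scaled to a common upper quartile per library. The relative value of an exon is its log2(value + 1) minus the mean over the gene's expressed exons, so it follows the exon against its own gene.

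In most vertebrate genes the longest exon is the last one, and it carries most or all of the 3′ untranslated region, the stretch after the stop codon that microRNAs and RNA-binding proteins use to set the stability, place and translation of the message. Brain transcripts are known for long 3′ untranslated regions, because cleavage and polyadenylation often occur at a far site in neurons. A second, small class of long exons is coding. Giant exons of this kind encode scaffolds, cytoskeletal linkers, zinc-finger proteins and the extracellular part of cadherins and protocadherins.

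RNA came from a tissue block around the central nucleus of the amygdala, which processes stress and reward, with 1 library per animal. After induction over about 90 days on 4% (w/v) ethanol, the animals drank for over 12 months with access for 22 hours a day. The labels place them by intake into 10 low (LD), 5 binge (BD), 7 heavy (HD) and 6 very heavy (VHD) drinkers, and each of the 28 took ethanol, so the comparisons are between levels of intake. By the definitions in the labels, BD rested on 2 g/kg on 55% of days and blood ethanol of 80 mg/dl, HD on 3 g/kg on 20% of days, and VHD on a daily average above 3 g/kg with 4 g/kg passed on 10% of days. The cohorts were 4 (8 animals, mean age 8.24 years at induction and 9.98 at the end), 5 (7 animals, 5.63 and 7.15 years), 7a (8 animals, 4.18 and 5.7 years) and 7b (5 animals, 5.69 and 7.18 years). HD and VHD animals (13, heavy) were compared with LD and BD animals (15, low). Cohort 5 held heavy animals alone (4 VHD and 3 HD), cohort 4 held 1 heavy and 7 low, 7a held 4 and 4, and 7b held 1 and 4, so cohort 7a was the one cohort with both VHD and LD animals.

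Libraries held 1910514 to 25928489 reads (median 16444833), and 3 reads were worth 1.82 to 24.1 normalized reads. The members took 13.7% to 16.3% of a library's exon value, lowest in the shallowest library (BD replicate 1). Neuronal, astrocyte and oligodendrocyte markers were present in every library. The summed markers of central amygdala neurons (7 genes, among them PENK and SST) ran from 6710 to 39385 in LD and from 4750 to 18514 in VHD libraries. In HD libraries these sums ran from 3558 to 32574, and in BD libraries from 3612 to 28832. In such a block, fewer cells of a type and less RNA per cell cannot be told apart.

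The members were mostly the outer exons of their genes. By coordinate, 1629 of 1713 (95.1%) were the first or last exon of the gene model, 796 at the lower and 833 at the upper end, against 14.2% of the other 107499 exons tested beside them. The remaining 84 lay inside. The table gives no strand and no coding region, so the outer exons could not be sorted into 5′ and 3′ ones, nor split into coding and untranslated bases. Lengths ran from 3001 to 23360 bases (median 4084). A member took a median of 60.5% of its gene's exon value with 74.4% of its exon length. In 1125 members the share was over 50%, in 65 over 90% and in 13 under 10%.

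The longest members show the range of levels. The last or first exon of SH3TC2, which encodes an endosomal protein of myelinating Schwann cells, spanned 23360 bases (chromosome 5, 146836139 to 146859498) with 326 ± 225 normalized reads (SD, n = 28), or 14 ± 9.64 per kilobase. TTN, the gene of the muscle giant titin, had an inner exon of 17106 bases at 3.82 ± 3.45 per kilobase. KSR2, a scaffold of the Ras and MAP kinase cascade, had an outer exon of 14168 bases with 1759 ± 376 reads. The 14000-base outer exon of GUCY1A2, a subunit of the nitric oxide receptor guanylate cyclase, held 4140 ± 1235 reads. TNRC6B, which brings deadenylases to microRNA targets, had 12978 bases and 2444 ± 493 reads. POU2F1, an octamer-binding transcription factor, had 11865 bases and 959 ± 242 reads. These outer exons held between 68.1% (SH3TC2) and 83.6% (POU2F1) of their gene's value. On both sides of the length rule, the nearest exons were WIPF1 (2998 bases), EP400 and ANGEL2 (2999 each) below and TBC1D25 (3001), POLR2M (3002) and HMGB3 (3004) above. Their mean values were 722 ± 273, 466 ± 70.6, 866 ± 171, 107 ± 20.9, 685 ± 70.8 and 254 ± 59.5 reads in this order.

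Reads were thinner on long outer exons than on the other expressed exons of the same gene. Density is the value per kilobase, and it was set against the summed value per kilobase of the gene's other expressed exons. The median member had 0.546 times the density of the rest (log2 -0.87, quartiles -1.35 and -0.38). The minimum for an expressed exon was set on reads and not on reads per kilobase. A short exon thus needed a higher density to pass than a long one, which can raise the rest and lower the ratio. With the minimum at 50 reads, the median was -0.99 (log2) over the 1139 members left. The size of the ratio therefore depends on this filter. Outer members had 0.536 times and inner members 0.885 times that of the rest. Density exceeded the rest in 203 of 1713 members (11.9%), which were 173 of 1629 outer (10.6%) and 30 of 84 inner ones (35.7%). In each of the 28 libraries the median of the inner members lay above that of the outer ones, by 0.64 to 0.88 (log2). Outer exons had like medians at every length, 0.497 to 0.584 times the rest in the classes from under 300 up to 5000 bases or more. Inner exons were at 0.855 to 0.931 times the rest in every class from 300 bases up, and at 1.35 times under 300 bases. The minimum of reads acts most on the class under 300 bases. The counting rule for a read that spans 2 exons is not given in the sources used here.

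**Figure D1:**
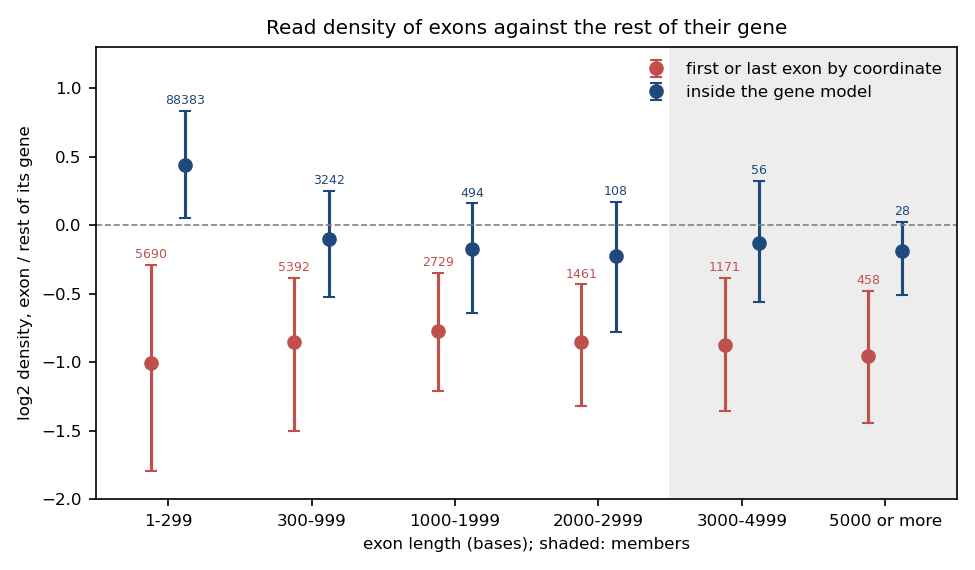
Read density of expressed exons against the other expressed exons of their gene (log2, y axis) by exon length in bases (x axis). Exons at either end of the gene model and inside it are shown apart. Points are medians over exons of the mean over 28 libraries, bars are quartiles, numbers are exons per class, and the shaded classes hold the members; outer exons lie near -0.9 in every class.

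The members densest against the rest of their gene were MBP, PRDM2, ZNF146, HS6ST2, FAT3 and ADNP. MBP, the major protein of compact myelin, had 1036 ± 372 reads per kilobase on its outer exon (chromosome 18, 67102936 to 67107400) and 116 ± 44.1 on the 3 other exons listed, a density 9.13 times as high and above in 28 of 28 libraries. PRDM2, a zinc-finger protein of the histone methyltransferase family, had 383 ± 84.0 on an inner exon of 4387 bases (chromosome 1, 12515129 to 12519515) and 78.8 ± 17.4 on the rest, 4.86 times. ZNF146, a protein made almost wholly of zinc fingers, stood at 4.05 times, and HS6ST2, which adds sulfate to heparan sulfate chains, at 3.30 times. ADNP, a homeobox protein bound to chromatin remodelers, had 3.12 times, with 97.1% ± 0.553 of the gene's value in the exon. FAT3 (3.14 times) was set against 24 other exons, and its ratio was 3.27 without the most covered of them. The other 5 genes had 2 to 6 other exons, and without the most covered one the ratio moved to 5.86 for HS6ST2, 4.75 for ADNP, 16.2 for MBP, 2.53 for PRDM2 and 14.1 for ZNF146. That exon was short and low in MBP (22.2 ± 9.77 reads on 88 bases), ADNP (32.1 ± 5.84 on 93) and ZNF146 (42.9 ± 11.0 on 74). It held 148 ± 44.1 reads on 519 bases in HS6ST2 and 79.3 ± 30.6 on 1564 in PRDM2. The ratios of MBP, ADNP and ZNF146 thus rest on short exons with low values.

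The thinnest long exons held a few percent of the density of their gene. RPL28, a protein of the large ribosomal subunit, had 39.9 ± 5.57 reads per kilobase on its 3698-base outer exon (chromosome 19, 50067047 to 50070744) against 1431 ± 188 on the rest. HDAC2, a histone deacetylase, had 39.3 ± 5.42 against 986 ± 78.1. KIF1B, a kinesin that carries synaptic vesicle precursors and mitochondria, had 132 ± 34.7 against 4586 ± 483, and that exon was 72.4% of the listed length with 7.01% ± 1.61 of the value. The translation factor gene MCTS1 (0.0382 times) and the rhomboid protease gene RHBDD1 (0.0268 times) were alike, and none of these 5 was denser than the rest in any library. ATOH8, a basic helix-loop-helix transcription factor, had the lowest ratio among members with a mean of at least 50, 0.00935. That value came from 1 other exon of 1213 bases, which held 5358 ± 13836 reads with up to 74397 in a library. Without it the ratio was 0.321.

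Genes with more than 1 long exon allow a comparison of long exons within a gene and a library, though the 2 exons differ in length (as in TTN, with 5609 and 17106 bases). There were 27 such genes, 2 of them with 3 members, and in 22 the ratio of the densest to the thinnest member lay on the same side in all 28 animals (median ratio 1.48, range 1.08 to 4.36). In a two-sided paired permutation test over animals, 25 of the 27 reached 1e-05, the smallest p that 100000 resamples can give, and TET2 (p = 1.90e-04 by the permutation test) and FAT2 (p = 0.00182 by the permutation test) did not. These p-values are not adjusted and measure the spread between animals only. The null was equal density of 2 exons that were not matched for length or position, so a small p is no result about exon use. In the 2 genes with 3 members, the pair was picked as the extremes of the same values. In 21 genes one of the 2 was inner and the other outer, and the inner one was denser in 17, in 15 of them in all 28 animals (median ratio of inner to outer 1.37 over the 21).

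FAT3, a giant cadherin of neurites, had the widest gap. Its exon at the lower end (chromosome 11, 84261242 to 84264550) carried 741 ± 338 reads per kilobase, the inner one of 4074 bases 258 ± 108, and the one at the upper end 166 ± 67.9, a ratio of 4.36 between the 2 ends in 28 of 28 animals. ARHGAP5, a protein that switches off small GTPases, had 1607 ± 133 on its inner exon (chromosome 14, 93290559 to 93294443) and 486 ± 37.4 on the outer one, 3.31 times. Its paralog ARHGAP35 had 2 outer members at 1021 ± 91.8 and 620.2 ± 80.5, 1.65 times. AKAP11, which anchors protein kinase A and its glycogen synthase kinase partner, had 2100 ± 300.4 on the inner exon, which alone held 52.3% ± 1.50 of the gene's value, and 1286 ± 155 on the outer one. The 4 genes in which the outer exon was denser than the inner one were PLEC (2.50 times), ZFHX4 (1.62), FAT1 (1.36) and MAP1B (1.14). PLEC encodes the cytolinker plectin, ZFHX4 a zinc-finger homeobox protein and FAT1 an atypical cadherin. The chromatin genes ATRX (1.52) and TET2 (1.08) had the denser exon inside. The 2 outer members of the protocadherins PCDH17 and PCDH7 differed by 1.58 and 1.27 times.

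**Figure D2:**
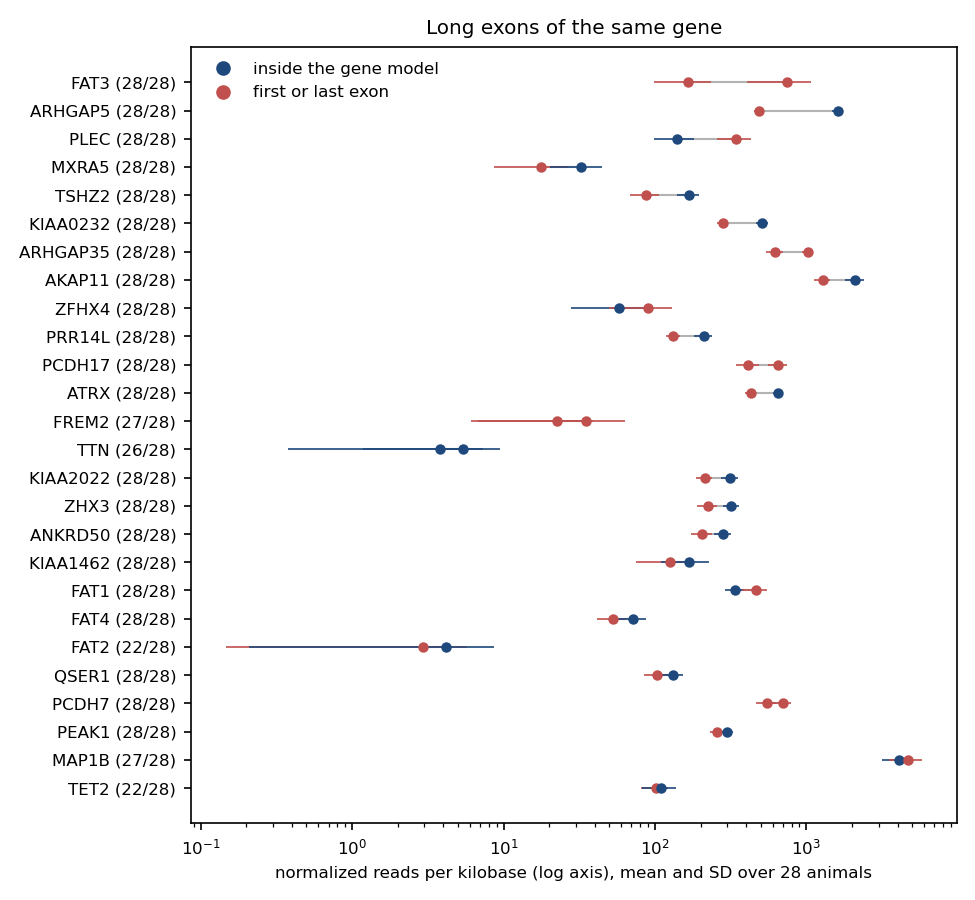
Normalized reads per kilobase (log axis) of the densest and thinnest long exon of 26 genes with 2 or more members, as mean and SD over 28 animals; the fraction after each name is the number of animals with the ratio on that side. Bars reaching below 0 are shortened. The inner exon is the denser one in 16 of the 20 genes drawn that pair an inner with an outer exon.

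The 8 inner members with the highest value per kilobase were those of MAP1B, MAP1A, AKAP11, ARHGAP5, PCDH9, RUFY3, PTPRZ1 and AKAP6. MAP1B, a microtubule-associated protein of growing axons, had 26697 ± 6105 reads on its inner exon of 6502 bases (chromosome 5, 68535873 to 68542374; 4106 ± 939 per kilobase) and 20958 ± 5116 on its outer exon, which held 51.2% and 40.0% of the gene's value. MAP1A, its counterpart in mature dendrites, had 23506 ± 3437 on 8188 bases (chromosome 14, 19904174 to 19912361), with a density 0.964 times that of the rest. PCDH9, a protocadherin, had 3743 ± 684 and 1.51 times the density of the rest in 28 of 28 libraries. AKAP6, which anchors protein kinase A at the nuclear envelope, was at 0.942 times. RUFY3, a regulator of axon growth (0.766 times), and PTPRZ1, a receptor phosphatase of glial precursors (0.576 times), were below the rest in all 28 libraries.

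Genes with a long exon made up 17.2% of the 9817 genes. The share was close to this in the lists of cleavage and polyadenylation and of brain markers. It was higher in the other lists examined, which are small and chosen by hand, and no test was made. A member was found in 11 of 19 tested genes of growth factors and plasticity (57.9%), 10 of 20 genes of binding to untranslated regions (50.0%), 4 of 10 of the microRNA machinery (40.0%), 13 of 40 transmitter receptors (32.5%), 12 of 35 ion channels (34.3%), 7 of 18 cytoskeletal and scaffold genes (38.9%), 6 of 21 of deadenylation and decay (28.6%) 3 of 16 of cleavage and polyadenylation (18.8%) and 6 of 30 brain markers (20.0%). The median density ratio (log2) was -0.55 for transmitter receptors, -0.67 for channels, -0.62 for cytoskeletal and scaffold genes, -0.28 for markers, -0.89 for the microRNA machinery, -0.96 for decay, -1.75 for cleavage and polyadenylation, -1.26 for genes of binding to untranslated regions and -1.24 for growth factors and plasticity, beside -0.87 over all members.

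In the plasticity genes, the outer exon of NTRK2, the receptor of brain-derived neurotrophic factor, held 17004 ± 3365 reads at 0.336 times the density of the rest. The kinases CAMK2A (8399 ± 3162 reads), CAMK2B and CAMK2D had like ratios of 0.425, 0.378 and 0.425. CREB1, the cyclic AMP response factor, was at 0.349 and NR3C1, the glucocorticoid receptor, at 0.705. Of the glutamate receptors, the GRIN2A exon of 9971 bases had 2220 ± 977 reads (0.682 times) and that of GRIN2B 1665 ± 406 (0.534 times). GABRB2 (5161 ± 571; 0.758 times) and GABRG1 (5856 ± 1356; 0.433 times) encode GABA-A receptor subunits. HTR2C, the serotonin receptor subject to RNA editing, was one of the few at or above the rest (1.2 times), as was the inward rectifier KCNJ3 (1.3 times).

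The sodium channel genes SCN1A, SCN2A, SCN3A and SCN8A had outer members with 0.608, 0.645, 0.543 and 0.488 times the density of the rest. Among proteins that act on untranslated regions, the members of ELAVL1 (0.421 times), PUM2 (0.512), TARDBP (0.387) and FXR1 (0.117) were below the rest, while NOVA1, a neuronal splicing regulator, was above (1.15 times, in 22 of 28 libraries). DICER1, which cuts microRNA precursors, was at 0.536 times, and the scaffolds ANK3 and APC at 0.269 and 0.618. MAP2, the dendritic microtubule protein, had 22564 ± 2174 reads at 0.688 times. The 2 members with the most reads, chosen after their values were seen, were those of the astrocyte glutamate transporter SLC1A2 (78226 ± 15218 reads on 9642 bases, or 8113 ± 1578 per kilobase) and of the imprinted zinc-finger gene PEG3 (41904 ± 7065 reads, 5616 ± 947 per kilobase). The listed genes ANK2, BSN, PCLO, AHNAK, BDNF, FMR1 and KCNQ3 had no member.

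Most long exons varied little against their gene across animals, though their median spread was above that of other exons of the same level. The SD of the relative value over the 28 libraries had a median of 0.17 (log2), and it was under 0.2 in 1145 of the 1693 members with a mean of at least 50 (67.6%) and at least 0.5 in 9 of them. Spread fell with level. The median SD was 0.27 for 223 members with means from 50 to 200 reads, 0.17 for 852 from 200 to 1000 and 0.13 for 618 above, and at each of these levels it was above that of other exons (0.20, 0.13 and 0.11). APC had the narrow range of 1.2-fold between its extreme libraries, and SCN8A an SD of 0.0621.

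Of the 8 most variable members, 6 had their highest or lowest value in the shallowest library, BD replicate 1. TLL1, a tolloid-like metalloprotease, spanned 30.1-fold in relative value and its exon had 0 reads in BD replicate 1, the shallowest library, beside a median of 45.5; the range was 2.84-fold without the 3 shallowest libraries. The same library was the highest of 28 for SHE and ZNF546 and the lowest for TMEM194A, GNG12 and ATOH8. Without the 3 shallowest, the range went from 6.58- to 1.78-fold for SHE, an adaptor with an SH2 domain, from 8.26- to 3.06-fold for the zinc-finger gene ZNF546, from 9.31- to 2.42-fold for TMEM194A, from 6.30- to 3.77-fold for ATOH8 and from 3.73- to 3.03-fold for GNG12, a G protein subunit. The other 2 ranges did not depend on them. That of MBP was 5.03-fold with and without the 3, and that of TMEM87B was 4.53- and 4.37-fold. The most covered other exon of MBP held only 3 to 39 normalized reads. In TMEM87B the long exon itself varied less (SD 0.31 in log2) than the mean of its 17 other exons (SD 0.58), of which 4 were listed at 0 in some library.

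The MBP exon held 2535 to 6149 in LD (median 3714), 3564 to 6872 in HD (median 3924) and 3704 to 10020 in VHD (median 5715) normalized reads, and the 5 BD values were 3576, 3680, 4516, 5472 and 6653. Categories overlapped, with the highest value in a VHD library. Across the 28 animals, the relative value of this exon correlated with the level of the other oligodendrocyte markers with Pearson's r = 0.52 (permutation p = 0.0049, adjusted p = 0.235 over 48 relations) and Spearman's rho = 0.46 (permutation p = 0.0147, adjusted p = 0.353). It did not pass the adjustment. Leaving out the 2 animals farthest from the median gave r = 0.38, and within cohorts r was 0.60 (cohort 4), 0.90 (cohort 5) and 0.19 (cohort 7a), and cohort 7b was too small. No other relation of the 48, between 8 variable members and 6 marker scores, passed either.

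As a whole, the long exons shifted little against their genes from library to library. The median over members of the relative value, each minus its own mean, ran from -0.07 (BD replicate 1) to 0.07 (VHD replicate 3). It was -0.04 to 0.06 in LD, -0.03 to 0.02 in HD and -0.04 to 0.07 in VHD libraries, and the 5 BD libraries had a median of -0.01 with a highest value of 0.04, so the categories overlapped. Cohorts overlapped as well, with medians of -0.02 in cohort 4 and 0.00 in each of 5, 7a and 7b.

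**Figure D3:**
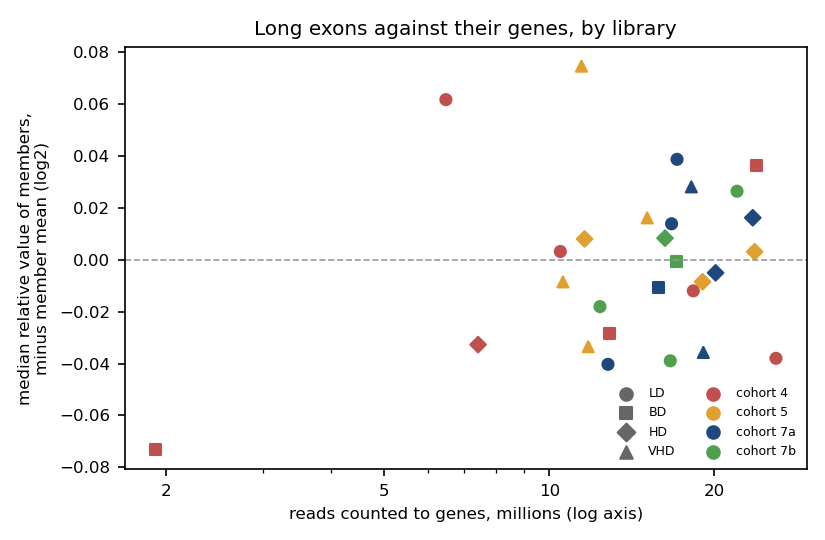
Median relative value of the 1713 members in each library, each member minus its mean over libraries (log2, y axis), against reads counted to genes (log axis, in Mreads); the marker gives the drinking category and the colour the cohort. All 28 libraries lie between -0.07 and 0.07, and the shallowest library is the lowest.

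Heavy and low drinkers were compared to see whether intake went with the level of long exons or with their use relative to the gene. No member passed the threshold of an adjusted p under 0.05 in limma on either scale, and neither did any other exon (background 0% of 112706 exons in level and 0% of 109212 in relative value). At an unadjusted p under 0.05 there were 61 members in level, 51 higher (background 2.28%) and 10 lower (background 1.66%) in heavy animals, 3.56% of members beside a background of 3.94%, and 56 in relative value, 25 higher (background 1.62%) and 31 lower (background 2.13%), 3.27% beside 3.75%. The 61 and their direction rested on single libraries: without HD replicate 1 there were 21, of which 10 higher and 11 lower, without LD replicate 7 there were 34, without LD replicate 1 104 and without VHD replicate 5 98. The 56 became 27 without HD replicate 1, 97 without BD replicate 1 and 94 without HD replicate 7. By edgeR's quasi-likelihood test on the level, 0 members were called. The median difference in level was 0.05 (log2) over members and 0.03 over all exons. At like mean level it was 0.05 in members and 0.02 in other exons from 50 to 200 reads. The same medians were 0.05 and -0.004 from 200 to 1000 reads and 0.05 and -0.03 from 1000 reads up. In relative value the median difference was 0.00. The 95% interval of the relative value lay within 1.5-fold either way for 97.3% of members, and that of the level for 85.8%. The gene mean includes the exon itself, so in genes with few exons the relative value understates a change against the other exons.

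**Figure D4:**
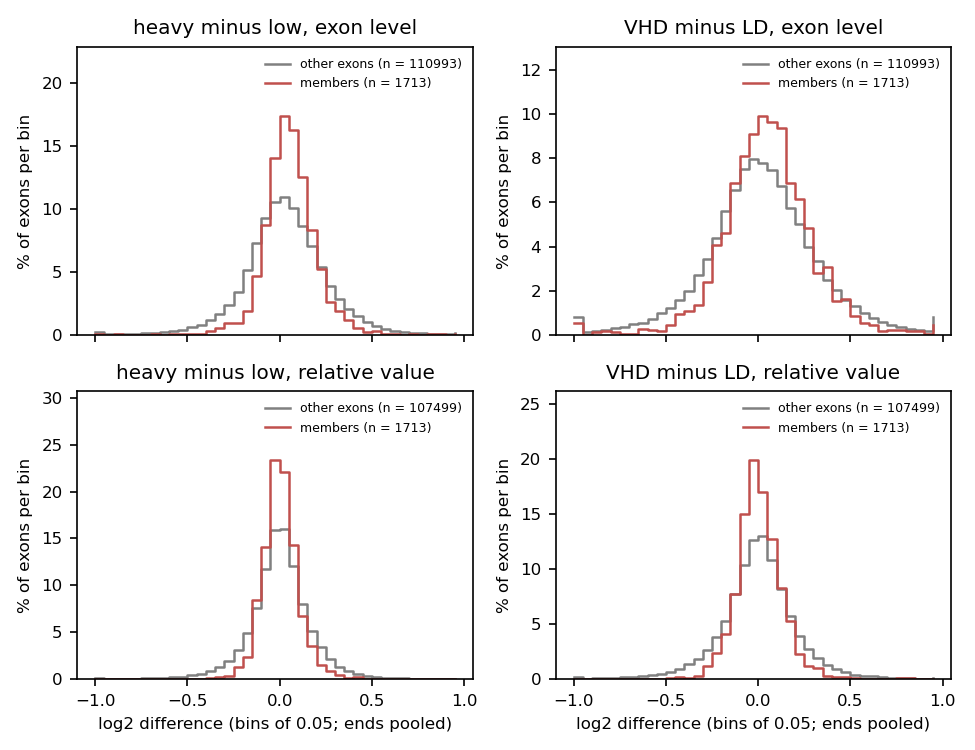
Distribution of log2 differences (x axis, bins of 0.05, values beyond the ends pooled in the last bins) for members and for the other exons tested, as percent of exons per bin (y axis): heavy minus low and VHD minus LD, in exon level and in relative value. Members are centred near 0 in all 4 panels and spread less than the other exons, which mostly have lower mean values and are not matched for level.

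The members named for heavy against low drinkers by smallest p are given with their fitted ratio, and some with their values, none past the threshold (adjusted p = 1.0 by limma for each). The ratios are adjusted for cohort and can differ from the plain values. RORA, a nuclear receptor of the clock and of cerebellar development, had 1177 to 1746 in LD (median 1349), 1329 to 2051 in HD (median 1472) and 1615 to 2140 in VHD (median 1698) reads on its exon of 9346 bases. Its 5 BD values were 1074, 1308, 1496, 1498 and 1668, so the groups overlapped, with 11 of 13 heavy animals above the mean of the low ones. The ratio of heavy to low was 1.28-fold (95% interval 1.09 to 1.49). PCDH9 was at 1.26-fold (95% interval 1.07 to 1.47), MYSM1, a histone H2A deubiquitinase, at 1.45-fold (95% interval 1.15 to 1.83), GLT25D2, a collagen galactosyltransferase, at 1.3-fold (95% interval 1.10 to 1.54) and JAKMIP2 at 1.24-fold (95% interval 1.07 to 1.45). On the lower side were DCDC2, a doublecortin-domain protein of cilia (0.552-fold, 95% interval 0.311 to 0.979), HS6ST2 (0.750-fold, 95% interval 0.586 to 0.960), DTX3L, a ubiquitin ligase (0.792-fold), TBL1X, a corepressor subunit (0.799-fold), and ZNF430 (0.833-fold). DCDC2 had 69 to 267 in LD (median 108), 30 to 204 in HD (median 116) and 29 to 145 in VHD (median 40.5) reads, with BD values of 73, 80, 123, 124 and 162. The low values lay in 5 VHD and 2 HD libraries, and the ranges overlapped. Within cohorts, the DCDC2 difference was -1.55 (log2) in cohort 7a, -0.36 in cohort 4 and 0.33 in cohort 7b, where 1 heavy animal each stood in the last 2. In this contrast the fitted difference was negative for 4 of 4 cholinergic (median -1.50 on the log2 scale), 3 of 3 GABAergic (median -0.54, 2 at an unadjusted p under 0.05) and 4 of 4 microglial markers and positive for 3 of 3 cortical and basolateral ones (median 0.86), with none past the threshold in limma. Their summed levels overlapped, with 43.7 to 7139 reads in low and 27.9 to 15393 in heavy animals for cholinergic, 7748 to 23414 and 7169 to 20192 for GABAergic, 2497 to 3562 and 2145 to 4030 for microglial and 114 to 1596 and 165 to 1621 for cortical and basolateral markers. The fitted differences are adjusted for cohort, and cohort 5 held no low animals. Plain medians in low and heavy animals were 557 and 748 for cholinergic and 361 and 313 for cortical and basolateral markers, against the fitted sign. They were 2889 and 2891 for microglial markers, near equal, and 17540 and 15304 for GABAergic markers, with the fitted sign. Their part in these exon levels was not tested.

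In relative value, the outer exon of LDLRAD4, an inhibitor of TGF-beta signalling (7473 bases), was at 3.21 to 3.66 in LD (median 3.49), 3.49 to 3.98 in HD (median 3.72) and 3.26 to 3.73 in VHD (median 3.45) on the log2 scale, with BD at 3.29, 3.35, 3.5, 3.54 and 3.58. HD libraries were high and VHD libraries overlapped LD. The ratio of heavy to low was 1.22-fold (95% interval 1.08 to 1.38), with 10 of 13 heavy animals above the mean of the low ones, and within cohorts it was 0.53, 0.22 and 0.21 (log2) in 4, 7a and 7b. RAB11FIP1, an effector of Rab GTPases in endosome recycling, was at 1.81 to 2.39 in LD (median 1.91), 1.43 to 2.22 in HD (median 1.64) and 1.43 to 2.13 in VHD (median 1.74), with BD at 1.52, 1.71, 1.78, 1.88 and 1.96. The ratio was 0.771-fold (95% interval 0.659 to 0.902), and LD libraries were the highest with overlap in every category. ASXL3, a Polycomb-associated protein, was at 1.36-fold (95% interval 1.10 to 1.67) with 12 of 13 heavy animals above the low mean. Its values were 1.42 to 2.52 in LD (median 1.74), 1.90 to 2.56 in HD (median 1.94) and 1.63 to 2.3 in VHD (median 2.06), with BD at 1.15, 1.73, 1.76, 1.85 and 1.95. The zinc-finger gene ZNF555 (1.25-fold), RAI1, a chromatin reader of the clock (1.27-fold), and the membrane protein gene MEGF9 (1.13-fold) were on the higher side. ARID5B, a DNA-binding partner of a histone demethylase (0.888-fold), ANO3, an anoctamin (0.880-fold), EHD2 of the caveolar neck (0.798-fold) and the inner exon of PLEC (0.863-fold) were on the lower side. For RAI1 the difference was 1.12 (log2) in cohort 4, where the 1 heavy animal is a shallow library, and 0.08 in cohort 7a.

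VHD animals were compared with LD animals, the widest contrast in intake. Again 0 members passed in limma on either scale (background 0% of exons on both). At an unadjusted p under 0.05, 169 members differed in level, 102 higher (background 2.78%) and 67 lower (background 2.7%), 9.87% of members beside a background of 5.48%, and 59 in relative value, 29 higher (background 1.54%) and 30 lower (background 1.43%), 3.44% beside 2.97%. edgeR called 0 members in level. By mean level, the share was 11.2% in members and 9.31% in other exons from 1000 reads up, 9.15% and 7.55% from 200 to 1000 reads, and 9.42% and 6.17% from 50 to 200 reads. Leaving out 1 library moved the 169 by over 1.5 times for VHD replicate 3 (109), VHD replicate 5 (100), LD replicate 6 (100) and VHD replicate 6 (277). The 95% interval lay within 1.5-fold for 65.5% of members in level and for 91.1% in relative value, so level changes of moderate size were less well bounded here.

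The members of this contrast were chosen after their values were seen, as the 4 higher and 4 lower in level with the smallest p. All had adjusted p = 0.884 by limma. The ratios are adjusted for cohort, so they lean on cohort 7a (2 VHD and 3 LD animals) and can differ from the ratio of the plain medians. TMEM132D, a single-pass membrane protein, had 314 to 579 in LD (median 420.0), 295 to 690 in HD (median 443) and 183 to 343 in VHD (median 276) reads on its outer exon (chromosome 12, 128944881 to 128948186), with BD values of 288, 337, 354, 354 and 567. VHD libraries were the low ones, 6 of 6 under the LD mean and 2 of them within the LD range, while HD libraries were not low. The ratio was 0.481-fold (95% interval 0.361 to 0.642). GDA, a guanine deaminase at postsynaptic sites, had 3345 to 7634 in LD (median 5280), 3783 to 7880 in HD (median 5857) and 1699 to 5423 in VHD (median 2824) and BD values of 3586, 3728, 4249, 4462 and 7675. The ratio was 0.474-fold (95% interval 0.319 to 0.705), with 5 of 6 VHD animals under the LD mean. HS6ST2 had 1447 to 2800 in LD (median 1801), 1008 to 2827 in HD (median 2098) and 1067 to 1757 in VHD (median 1271) and BD values of 1386, 1580, 1670, 1708 and 2741, at 0.563-fold (95% interval 0.421 to 0.751). PLCXD3, a phospholipase-like protein, was at 0.623-fold (95% interval 0.490 to 0.792), and each of these exons overlapped between VHD and LD.

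On the higher side, CD44, the hyaluronan receptor of astrocytes and immune cells, had 41 to 128 in LD (median 70.0), 32 to 169 in HD (median 97.0) and 90 to 343 in VHD (median 210.5) reads, with BD values of 40, 81, 87, 122 and 146. VHD libraries held the highest values, 6 of 6 above the LD mean, and the 2 lowest VHD libraries lay within the LD range. The ratio was 3.01-fold (95% interval 1.65 to 5.48). OSBPL3, an oxysterol-binding protein, had 28 to 117 in LD (median 63.5), 21 to 122 in HD (median 41.0) and 76 to 133 in VHD (median 97.0) and BD values of 53, 67, 69, 80 and 114, at 2.35-fold (95% interval 1.52 to 3.62). FBXO32, a muscle-type ubiquitin ligase subunit, had 517 to 837 in LD (median 582), 588 to 779 in HD (median 711) and 746 to 1186 in VHD (median 866), with BD at 604, 705, 707, 734 and 796, at 1.52-fold (95% interval 1.24 to 1.86). RORA was at 1.43-fold (95% interval 1.18 to 1.75). Cell-type markers differed along with this contrast in the gene table. The fitted difference was positive for 4 of 4 oligodendrocyte, 4 of 4 cholinergic and 3 of 3 cortical and basolateral glutamatergic markers and negative for 7 of 7 markers of central amygdala neurons and 3 of 3 GABAergic ones, with none past the threshold. Their summed levels were 33397 to 72319 reads in LD and 50742 to 98220 in VHD libraries for oligodendrocytes, 10400 to 23414 and 7930 to 17414 for GABAergic, 126 to 7139 and 109 to 15393 for cholinergic and 114 to 1061 and 169.8 to 1423 for cortical and basolateral markers. Plain medians of these sums had the fitted sign except for cortical and basolateral markers (354 in LD and 284 in VHD libraries). No marker was at 0 in all libraries. Their part in these exon levels was not tested.

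In relative value, ARHGEF17, a guanine nucleotide exchange factor, was at -0.62 to 0.62 in LD (median -0.08), -0.56 to 0.12 in HD (median -0.35) and -0.18 to 0.88 in VHD (median 0.55), with BD at 0.00, 0.13, 0.16, 0.43 and 0.81 (log2). VHD libraries were high apart from 1, and every HD value lay within the LD range. The ratio of VHD to LD was 1.74-fold (95% interval 1.26 to 2.41), adjusted p = 1.0 by limma. PTP4A1, a prenylated phosphatase, was at 2.35 to 2.72 in LD (median 2.47), 2.27 to 2.66 in HD (median 2.54) and 2.06 to 2.42 in VHD (median 2.29), with BD at 2.32, 2.32, 2.44, 2.45 and 2.47. All 6 VHD animals were below the LD mean, and the ratio was 0.823-fold (95% interval 0.726 to 0.934). NIPA1, a magnesium transporter (1.37-fold), ZNF521, a zinc-finger cofactor (1.33-fold), and ZNF555 (1.29-fold) were on the higher side. HDAC4, a class II deacetylase (0.868-fold), NMT1, which attaches myristate to proteins (0.851-fold), and the transcription factor EBF1 (0.712-fold) were on the lower side. None passed the threshold, and LD and VHD overlapped for ARHGEF17 and PTP4A1.

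**Figure D5:**
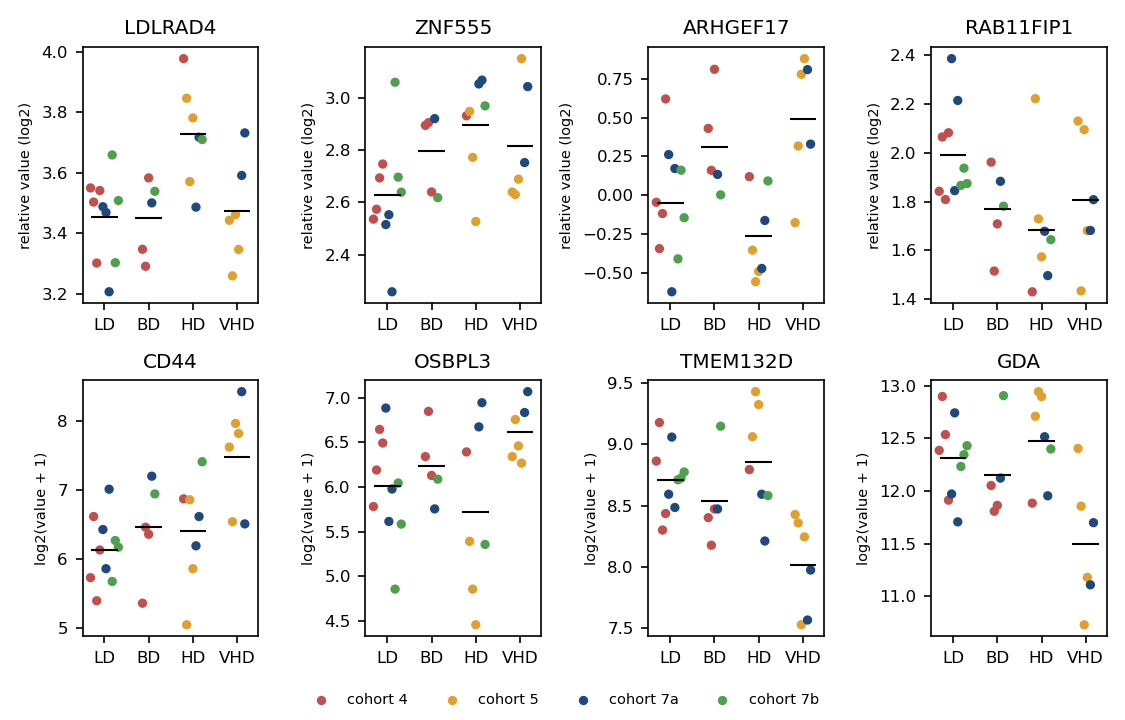
Values of 8 named members by drinking category, 1 point per animal coloured by cohort, with the mean of each category as a line: relative value (log2) in the upper row and log2(value + 1) in the lower row. VHD points are low for TMEM132D and GDA and high for CD44, and the categories overlap in every panel.

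HD animals gave 0 members against LD in limma (background 0% in level and 0% in relative value), and edgeR called 0 in level. By limma, 50 were at an unadjusted p under 0.05 in level (2.92%, background 3.78%), 34 higher (background 1.96%) and 16 lower (background 1.82%). In relative value there were 51 (2.98%, background 3.61%), 23 higher (background 1.72%) and 28 lower (background 1.89%). The 50 were 19 without LD replicate 7, 30 without HD replicate 6, 98 without LD replicate 1, 87 without HD replicate 7 and 76 without VHD replicate 5, and the 51 were 77 without BD replicate 1 and 77 without HD replicate 7. The members with the smallest p in relative value were LDLRAD4 (1.27-fold, 95% interval 1.12 to 1.44; 7 of 7 above the LD mean), ZNF555 (1.3-fold), RAB11FIP1 (0.735-fold) and EBF1 (0.717-fold; 7 of 7 below), all with adjusted p = 1.0 by limma. BD animals likewise gave 0 members against LD (background 0.000887% in level, 0% in relative value). At an unadjusted p under 0.05 there were 31 in level (1.81%, background 5.13%), 8 higher (background 1.77%) and 23 lower (background 3.35%). In relative value there were 112 (6.54%, background 7.39%), 43 higher (background 3.89%) and 69 lower (background 3.5%). The 31 ranged from 18 (without BD replicate 1) to 74 (without BD replicate 4), with 47 without LD replicate 2, 52 without LD replicate 3, 59 without BD replicate 2 and 72 without BD replicate 5. The 112 were 59 without BD replicate 1 and 181 without BD replicate 2. edgeR called 0 in level. SNTB1, a syntrophin of the dystrophin complex, was at 3.04 to 3.29 in LD (median 3.11), 2.83 to 3.32 in HD (median 3.06) and 2.80 to 3.14 in VHD (median 2.98) with BD at 2.41, 2.82, 2.90, 2.93 and 2.96 in relative value (log2). Every BD value lay below the lowest LD value, the lowest in BD replicate 1, and the ratio was 0.796-fold (95% interval 0.700 to 0.906), adjusted p = 0.674 by limma. NUDCD3, a dynein-complex chaperone (0.879-fold), was lower in 5 of 5, while KIF21B, a kinesin of dendrites (1.17-fold), and SMU1, a splicing factor (1.12-fold), were higher in 5 of 5, with the same adjusted p.

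The 4 cohorts, which differ in age by the labels, gave 0 members in limma's F test with category as a term (background 0% in level and 0% in relative value). At an unadjusted p under 0.05 there were 167 in level (9.75%, background 6.97%) and 56 in relative value (3.27%, background 3.49%; 95 without BD replicate 1). In level, edgeR called 0. The smallest p-values in relative value belonged to NMT1, RUNX1T1 (a corepressor), ARID5B, FBXO41 (a neuronal F-box protein), KCNN3 (a calcium-activated potassium channel) and ACBD7, with adjusted p = 1.0 for each by limma.

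A test of whether the heavy minus low difference itself differed between cohorts 4, 7a and 7b gave 3 members in relative value (background 0.107%) and 0 in level (background 0.0453%). They were SFRP1, an inhibitor of Wnt signalling (adjusted p = 0.00594 by limma), MPP7, a polarity scaffold (adjusted p = 0.00845), and USP9X, a deubiquitinase (adjusted p = 0.0328). Cohorts 4 and 7b held 1 heavy animal each. SFRP1 was at 3.5 in HD replicate 7, the heavy animal of cohort 7b, and at 2.22 to 2.81 in the other 27. MPP7 and USP9X were lowest in HD replicate 1, the heavy animal of cohort 4 and the third shallowest library, at 2.55 and 2.31 against 2.80 to 3.54 and 2.58 to 2.88 in the others. Without HD replicate 7, the adjusted p of SFRP1 was 0.668, and without HD replicate 1 that of MPP7 and of USP9X was 1.0, with 2 cohorts left. With a pseudocount of 8 none of the 3 passed (adjusted p = 0.47, 0.495 and 0.111 by limma for SFRP1, MPP7 and USP9X).

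Genes that act on 3′ ends and untranslated regions were read from the gene table. In limma, 0 of 20 genes of cleavage and polyadenylation, 0 of 22 binding proteins of untranslated regions, 0 of 10 of the microRNA machinery and 0 of 21 of deadenylation and decay passed, in heavy against low or in VHD against LD. Over all 13022 genes 0 passed as well, with 544 and 1116 at an unadjusted p under 0.05. For heavy against low, the lists held 0, 0, 1 and 0 genes at an unadjusted p under 0.05, and for VHD against LD 2, 3, 0 and 1. edgeR on whole reads recovered from the gene table called 0 in each list too. Median log2 differences for VHD were -0.02, 0.11, 0.06 and -0.01 in this order, beside 0.01 over all genes.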

How the data were processed

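Per the labels, ribosomal RNA was removed from the total RNA of each block before strand-specific sequencing. The authors deposited a score per exon and a signal per gene, both named as upper-quartile normalized reads. On the values, the gene signal is whole reads times 1 factor per library, and the exon score is in whole numbers. CASAVA, FastQC, STAR 2.3.0e and edgeR are named by the submitters' processing notes. The genome build is not given in the sources used here, nor is the annotation. Of 30 columns, 28 match the labels and 2 were not used. In the gene table, 100% of values lay within 0.02 reads of whole multiples of a step per library, so whole reads were recovered, on which edgeR called 0 of 13022 genes (585 at an unadjusted p under 0.05 for heavy against low, 1220 for VHD against LD).

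The 112706 exons that reached 10 normalized reads in 5 or more libraries were tested on log2(value + 1) with limma 3.58.1 in R 4.3.3 (mean-variance trend, two-sided, Benjamini-Hochberg over all exons, threshold 0.05), with cohort as a term. Fold changes are on this scale and understate changes of low exons. Relative values were tested in genes with at least 3 such exons (109212). Densities use an offset of 0.1 reads per kilobase. edgeR 4.0.16 ran on exon values divided by the gene table's step. Tables were described with Python 3.11.15, and the fits were tested on simulated data.

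Named members had a mean of at least 50 and were the 6 longest, the 6 highest and 6 lowest in density, the 8 densest inner ones, the 8 most variable, those with the smallest p (5 and 5 per scale for heavy against low, 4 and 4 for VHD, 2 and 2 for HD and BD, 6 for cohorts), a fixed list of 24 genes whatever their values, and the 3 and 3 nearest to 3000 bases. A few genes that the rule names are not reported here. The members and lists were chosen with earlier results of these data known. Nothing in the labels pairs animals, and p-values measure the spread between animals.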

Additional observations from a re-analysis of the deposited data

Results flagged for a closer look

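In 208 groups of 5 to 10 libraries (drinking categories, for the whole-library medians and the members named for a contrast or for variability), 24 held a library that stood apart from the rest of its category by Dixon's test (11.5%). Chance flags about 1 in 20 groups, but that rate does not apply to members chosen for their spread or their small p, since an outlying library is part of why they were chosen. Of the 24, 12 fell on BD replicate 1 or HD replicate 1, which are the shallowest and the third shallowest library. The share of exon value in members was 13.7% in BD replicate 1 and 15% to 15.4% in the other BD libraries. The median density ratio was -0.93 (log2) in HD replicate 1 and -0.87 to -0.83 in the other HD libraries. SHE had a relative value of 4.23 in BD replicate 1 beside 1.51 to 2.14 in the other BD libraries. SHE had a relative value of 3.44 in HD replicate 1 beside 1.86 to 2.34 in the other HD libraries. TMEM194A had a relative value of 0.0111 in BD replicate 1 beside 2.3 to 2.63 in the other BD libraries. ZNF546 had a relative value of 5.60 in BD replicate 1 beside 2.73 to 3.28 in the other BD libraries. TLL1 had a relative value of -1.82 in BD replicate 1 beside 2.28 to 2.74 in the other BD libraries. ASXL3 had a relative value of 1.15 in BD replicate 1 beside 1.73 to 1.95 in the other BD libraries. RAI1 had a relative value of 3.24 in BD replicate 1 beside 3.67 to 3.76 in the other BD libraries. RAI1 had a relative value of 4.70 in HD replicate 1 beside 3.59 to 3.87 in the other HD libraries. SNTB1 had a relative value of 2.41 in BD replicate 1 beside 2.82 to 2.96 in the other BD libraries. FBXO41 had a relative value of 4.07 in HD replicate 1 beside 3.72 to 3.86 in the other HD libraries.

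The other 12 fell on other libraries. TLL1 had a relative value of 1.38 in HD replicate 6 beside 2.18 to 2.65 in the other HD libraries. MYSM1 had a log2(value + 1) of 9.42 in LD replicate 1 beside 7.71 to 8.37 in the other LD libraries. JAKMIP2 had a log2(value + 1) of 8.91 in BD replicate 2 beside 8.48 to 8.56 in the other BD libraries. ZNF430 had a log2(value + 1) of 7.08 in VHD replicate 5 beside 7.64 to 7.88 in the other VHD libraries. DCDC2 had a log2(value + 1) of 7.19 in VHD replicate 1 beside 4.91 to 5.70 in the other VHD libraries. TBL1X had a log2(value + 1) of 8.17 in VHD replicate 6 beside 8.72 to 8.99 in the other VHD libraries. RAB11FIP1 had a relative value of 2.22 in HD replicate 2 beside 1.43 to 1.73 in the other HD libraries. ANO3 had a relative value of 3.59 in VHD replicate 5 beside 3.98 to 4.14 in the other VHD libraries. ZNF521 had a relative value of 4.50 in LD replicate 4 beside 3.61 to 4.01 in the other LD libraries. RUNX1T1 had a relative value of 3.94 in LD replicate 7 beside 3.6 to 3.78 in the other LD libraries. RUNX1T1 had a relative value of 3.69 in VHD replicate 5 beside 3.83 to 3.91 in the other VHD libraries. GDA had a log2(value + 1) of 12.91 in BD replicate 5 beside 11.81 to 12.12 in the other BD libraries.

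For 3 members the difference between heavy and low animals in relative value differed between cohorts by a test of the difference itself in limma: SFRP1 (adjusted p = 0.00594), MPP7 (adjusted p = 0.00845) and USP9X (adjusted p = 0.0328). Each rested on the only heavy animal of 1 cohort, as given above.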

How the results depend on the processing

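For each of the 10 comparisons (heavy against low, BD, HD and VHD against LD, and cohorts, in level and in relative value), 0 members were called as reported and in all 368 alternatives (pseudocounts of 0.5 and 8, filters, scaling, weights, the reference of the relative value, diffSplice, edgeR, cohort 7a alone, no cohort term, no shallow libraries, each library left out). The lowest adjusted p of a member was 0.0627. Counts at an unadjusted p under 0.05 moved more, from 21 to 134 members in level and from 1 to 97 in relative value for heavy against low, 100 to 277 and 3 to 85 for VHD, 19 to 98 and 3 to 77 for HD, 17 to 74 and 2 to 181 for BD, and 111 to 283 and 45 to 104 for cohorts. The counts of 1 to 3 are those of diffSplice. The 44 named differences kept their direction in all 1629 alternative values, and their lowest adjusted p was 0.17. They were named for their small p in these same libraries, so the kept direction was largely set by that choice and is no support for them. In all exons, diffSplice called up to 444 (BD), 122 (heavy), 117 (VHD) and 104 (HD), none of them members. Members were 1713 of the 109212 exons in that fit. With only 1 to 3 members at an unadjusted p under 0.05 by diffSplice, the lack of member calls says little about long exons. Lists of 3′ end genes gave 0 calls with a pseudocount of 8 and with edgeR.

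The 3 members whose difference varied by cohort were 0 with a pseudocount of 8 and 1 to 6 with each library left out in turn (1 without HD replicate 1, 6 without BD replicate 1). With a length rule of 2000 bases there were 3282 members, with 5000 bases 486, and with a filter at 50 reads 1139. The median density ratio (log2, -0.87) was -0.93 at 5000 bases, -0.99 with the filter at 50 and -1.01 against the median of the other exons, and -0.88 to -0.86 with a library left out. The range of library medians (0.15) was 0.10 at 2000 bases, 0.25 at 5000 bases and 0.20 with a pseudocount of 8.

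No paired analysis was possible because the replicate numbers follow accession order and pair no animals. diffSplice was not run for the F test over cohorts. Depth limits the 3 shallowest libraries, where 3 reads are worth up to 24.1 normalized reads. Without strand and coding regions, 3′ untranslated regions could not be told from other outer exons, and a density ratio covers only the exons tested (4 for MBP).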
